A study of Homo sapiens with 4 samples.

Results

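Tetraspanin genes were followed through cells in which KLF11 had been lowered with an siRNA. They were taken from the gene table by name, as every symbol made of TSPAN and a number together with CD9, CD37, CD53, CD63, CD81, CD82, CD151, UPK1A, UPK1B, PRPH2 and ROM1. This gave 33 genes of 57905 identifiers, and 24 of them had a mean level of at least 1 FPKM over the libraries and were tested, beside 15320 tested genes in all. FPKM is the number of sequenced fragments per kilobase of gene, scaled to the size of the library, so levels can be set side by side between genes.

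The libraries came from polyadenylated RNA of cells labelled MG63, which is an established human cell line derived from an osteosarcoma, a tumour of bone. All were harvested 48 hours after transfection, 2 libraries after a control siRNA (genotype labelled control) and 2 after an siRNA against KLF11 (genotype labelled KLF11-knockdown). The labels do not say that the replicates came from separate cultures, so the spread behind each p-value is that of these libraries alone and may be technical. No counts are at hand, so the depth of each library is unknown, and fewer cells that express a gene cannot be told apart from less RNA per cell. The library totals lay between 577849 and 604498 FPKM.

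The siRNA target KLF11 stood at 12.3 and 12.4 FPKM in the controls and at 5.49 and 6.74 FPKM after KLF11 siRNA (log2 change -0.92, SE 0.139, limma adjusted p = 0.00951). Several markers went against the label of an osteosarcoma line. In the controls CER1, an early endoderm marker, stood at 4430 and 4406 FPKM. TDGF1, a pluripotency marker, stood there at 603 and 631 FPKM. Of 9 osteoblast lineage markers 4 reached 1 FPKM on average. RUNX2 stayed at or below 0.65 FPKM in every library and IBSP was listed at 0, whereas ALPL lay between 79.3 and 106 FPKM and COL1A2 between 115 and 136 FPKM. SPP1 rose, with 2.31 and 2.76 FPKM in the controls and 247 and 99.1 FPKM after KLF11 siRNA (limma adjusted p = 0.00299). COL1A1 fell, from 23.3 and 22.3 FPKM to 11.9 and 15.8 FPKM (limma adjusted p = 0.0234), and ALPL and COL1A2 did not pass. The 9 markers summed to 262 and 242 against 502 and 311 FPKM, a gain that lay in SPP1. The 7 pluripotency markers summed to 1329 and 1338 FPKM in the controls and to 2677 and 2226 FPKM after KLF11 siRNA. Most of that gain was in POU5F1, at 186 and 177 against 1364 and 1068 FPKM. NANOG, SOX2, DPPA4 and ZFP42 rose as well, so that 5 of 7 were called higher (71.4%, against 13.5% of all tested genes). TDGF1 lay between 592 and 631 FPKM and did not pass, and LIN28A fell (limma adjusted p = 0.0399). The 7 early endoderm markers summed to 5081 and 5044 FPKM in the controls and to 1301 and 3019 FPKM after KLF11 siRNA, so this set differed more between the KLF11 siRNA libraries than between the controls. CER1, which carried most of it, missed the threshold (limma adjusted p = 0.0543). FOXA2, GATA4, GATA6 and SOX17 fell, which is 4 of 7 (57.1%, against 21.7% of all tested genes), and EOMES rose (limma adjusted p = 0.0372). The 8 mesenchymal markers summed to 190 and 173 FPKM in the controls and to 914 and 913 FPKM after KLF11 siRNA. VIM carried most of this gain, at 144 and 131 against 808 and 800 FPKM. Of 5 tested, 4 rose (80%, against 13.5% of all tested genes), namely VIM, TWIST1, THY1 and PDGFRB. COL5A1 was lower in both KLF11 siRNA libraries and did not pass (limma adjusted p = 0.175). COL3A1, FAP and LUM did not reach 1 FPKM on average. The part of these marker sets in the changes of single tetraspanins was not tested. The cells are therefore named here only by their label.

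Tetraspanins are small proteins that cross the cell membrane several times and carry a large extracellular loop with a conserved cysteine motif. They bind integrins, immunoglobulin-like proteins, the protease ADAM10 and each other sideways in the membrane, and so gather these partners into patches called tetraspanin-enriched microdomains. Several of them, above all CD9, CD63 and CD81, are carried on extracellular vesicles and are used as markers of these.

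The expressed members moved in both directions after KLF11 siRNA, and more of them fell than rose. CD9, TSPAN7, TSPAN6 and TSPAN9 rose. UPK1B, TSPAN15, TSPAN31, TSPAN13, TSPAN14, CD63, TSPAN5, TSPAN33 and TSPAN3 fell, and 11 tested members did not pass. Called genes are those with an adjusted p under 0.05 from limma on log2(FPKM + 1), a scale that understates the change of low genes. The 4 rises are 16.7% of the tested members, against 13.5% of all tested genes called higher, and the 9 falls are 37.5%, against 21.7% called lower, so that 54.2% of the tested members and 35.2% of all tested genes were called in either direction. In 5 tested members both KLF11 siRNA libraries lay above both controls (28.9% of all tested genes did) and in 14 below (44.5%), which leaves 5 with overlap, while 73.4% of all tested genes had no overlap. The median log2 change was -0.31 over the tested members and -0.11 over all tested genes.

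**Figure D1:**
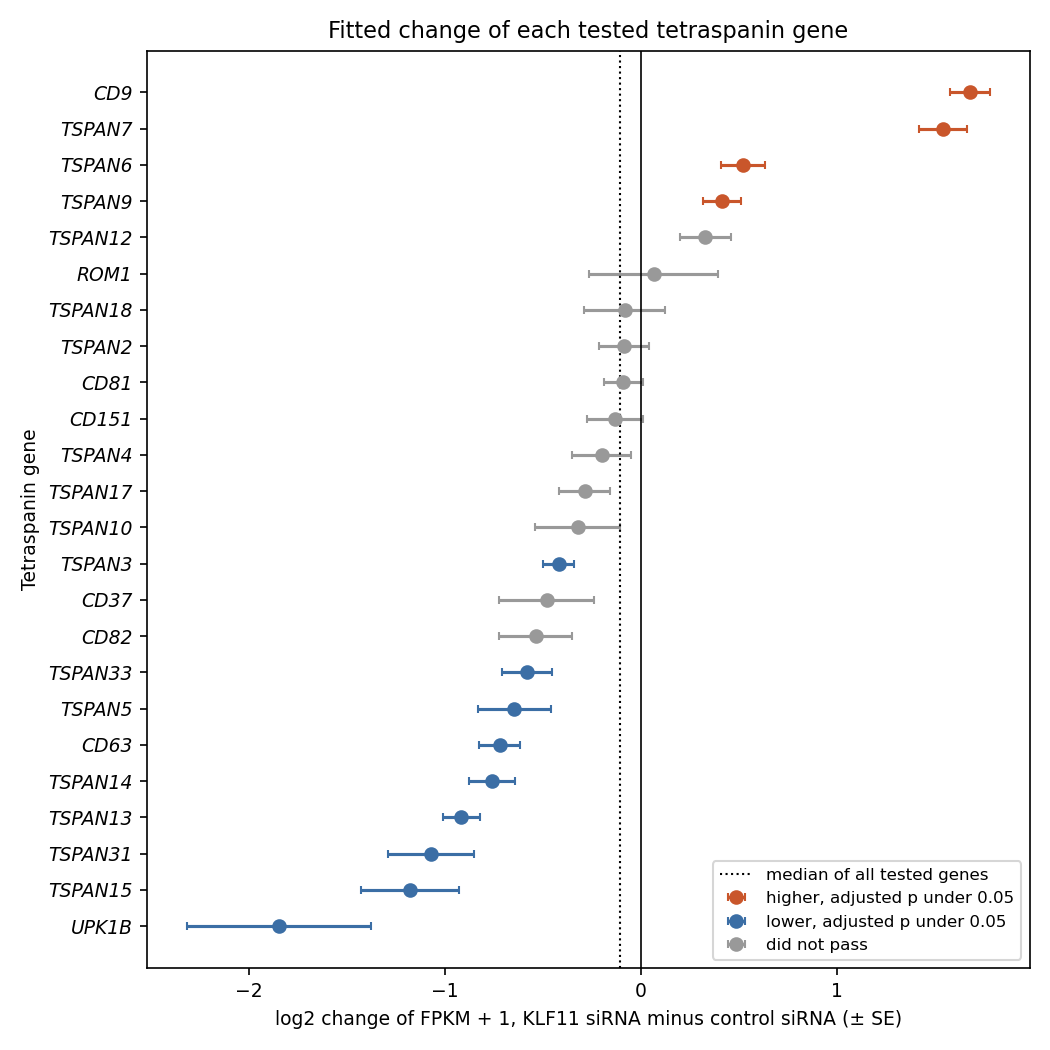
Fitted log2 change of FPKM + 1 (KLF11 siRNA minus control siRNA, horizontal axis, bars are ± 1 SE) for the 24 tested tetraspanin genes, with the median of all tested genes as a dotted line at -0.11. CD9 and TSPAN7 lie farthest to the right, at 1.68 and 1.54, and UPK1B farthest to the left, at -1.85.

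These shares move with the scaling. Median-of-ratios scaling, which brings the median over all tested genes from -0.11 to -0.01, called 5 members higher and 8 lower, and quantile normalization called 5 higher and 7 lower. CD9, TSPAN7, CD63, TSPAN13, TSPAN14 and TSPAN3 kept their call in all alternatives that used all 4 libraries and without either KLF11 siRNA library. With either control library left out no tetraspanin passed, as was the case for all 15320 tested genes, although 11 or 10 members then had an unadjusted limma p under 0.05 and the 13 called members kept their sign.

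Promoters of 25 of the 33 genes were in a RefSeq table of build GRCh38.p14. The 250 bases before a listed transcription start are shown for 4 genes on which the results turn. CD9 had the largest rise in fitted log2 change, CD63 was the most abundant member, TSPAN14 the most abundant of the tetraspanins that bind ADAM10 and UPK1B had the largest fall. They run 5′ to 3′ in the sense of the gene, with capitals at each match, on either strand, to the GC box GGGCGG, the CACCC box CCACCC or the TEAD motif GGAATG. GC and CACCC boxes are the kinds of sequence bound by the Krüppel-like family, and TEAD factors are the DNA-binding partners of YAP. The windows were chr12:6199696-6199945 on the plus strand for CD9, chr12:55729010-55729259 on the minus strand for CD63, chr10:80454060-80454309 on the plus strand for TSPAN14 and chr3:119173348-119173597 on the plus strand for UPK1B.
CD9: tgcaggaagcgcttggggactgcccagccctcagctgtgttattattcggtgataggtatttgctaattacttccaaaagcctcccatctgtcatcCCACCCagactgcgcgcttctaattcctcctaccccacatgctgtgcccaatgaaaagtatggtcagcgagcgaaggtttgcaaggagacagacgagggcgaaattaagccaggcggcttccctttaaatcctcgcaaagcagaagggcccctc
CD63: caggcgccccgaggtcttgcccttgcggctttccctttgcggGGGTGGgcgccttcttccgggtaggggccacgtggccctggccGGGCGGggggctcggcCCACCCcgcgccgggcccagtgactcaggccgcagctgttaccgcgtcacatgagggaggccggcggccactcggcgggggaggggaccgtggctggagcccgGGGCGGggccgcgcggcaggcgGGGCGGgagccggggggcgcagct
TSPAN14: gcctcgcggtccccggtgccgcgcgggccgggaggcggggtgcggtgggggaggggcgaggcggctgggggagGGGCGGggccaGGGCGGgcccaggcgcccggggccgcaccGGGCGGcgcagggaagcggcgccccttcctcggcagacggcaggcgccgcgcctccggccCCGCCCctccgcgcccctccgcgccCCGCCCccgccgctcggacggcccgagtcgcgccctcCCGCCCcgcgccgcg
UPK1B: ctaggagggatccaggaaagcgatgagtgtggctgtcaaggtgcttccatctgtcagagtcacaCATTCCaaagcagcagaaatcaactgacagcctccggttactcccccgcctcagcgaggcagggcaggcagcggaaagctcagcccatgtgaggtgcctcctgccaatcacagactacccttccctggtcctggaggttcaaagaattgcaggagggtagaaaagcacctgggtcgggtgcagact

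The CD9 window held 1 CACCC box and no GC box, with a GC content of 52.8%. The CD63 window held 3 GC boxes and 2 CACCC boxes, and the TSPAN14 window 6 GC boxes, with GC contents of 79.2% and 88.0%. UPK1B had neither box and 1 TEAD match. Among the members that fell, 6 of the 8 with a promoter in the table (75.0%) held a GC box, which compares with 68.3% of 10151 tested genes, 71.8% of the genes called lower and 42.3% of 27305 promoters. A CACCC box was found in 2 of those 8 members (25.0%), in 34.9% of the tested genes, in 39.2% of the genes called lower and in 30.4% of all promoters. A TEAD match was found in 2 of them (25.0%), in 9.25% of the tested genes, in 9.34% of the genes called lower and in 11.9% of all promoters. Over the 17 tested tetraspanins with a promoter in the table, called or not, 4 held a TEAD match (23.5%), a share close to that of the members that fell. Of the 4 members that rose, 2 were in the table, CD9 and TSPAN6, and neither had a GC box in the window read. Among the 1472 genes called higher with a promoter in the table, 65.6% held one. With 2 windows no contrast to the members that fell can be drawn. Only 1 window per gene was read, so matches before any other start of a gene were not counted. These matches are letters in a window and were not measured as binding.

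The 5 tetraspanins best known from the cell surface and from vesicles, CD9, CD63, CD81, CD82 and CD151, made up most of the summed level. CD9 (ENSG00000010278), which associates with integrins and immunoglobulin-like partners and takes part in cell adhesion and fusion, measured 55.4 and 52.1 FPKM in the controls and 186 and 162 FPKM after KLF11 siRNA. Both KLF11 siRNA libraries stood far above both controls. Its mean rose 3.24-fold, from 53.7 ± 2.27 to 174 ± 17.2 FPKM (SD, n = 2 each; log2 change 1.68, SE 0.101, limma adjusted p = 0.00235). The next gene on one side of CD9 in the RefSeq table is VWF, which went the other way, from 12.5 and 10.7 FPKM to 0.35 and 2.86 FPKM (limma adjusted p = 0.0186).

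CD63 (ENSG00000135404) is a tetraspanin of late endosomes and lysosomes and was the most abundant member in every library. It measured 467 and 463 FPKM in the controls and 260 and 305 FPKM after KLF11 siRNA, without overlap between the groups. Its mean fell 1.65-fold, from 465 ± 2.58 to 283 ± 31.4 FPKM (SD, n = 2 each; log2 change -0.72, SE 0.105, limma adjusted p = 0.00882).

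CD81 and CD151 did not pass and their libraries overlapped between groups. CD81, a partner of integrins and of the B cell coreceptor, measured 172 and 150 FPKM in the controls and 154 and 147 FPKM after KLF11 siRNA (log2 change -0.09, SE 0.0989, limma adjusted p = 0.504). CD151, which binds laminin-binding integrins such as those with the alpha3 and alpha6 chains, measured 113 and 99.9 FPKM in the controls and 85.7 and 109 FPKM after KLF11 siRNA (log2 change -0.13, SE 0.143, limma adjusted p = 0.497). The change of CD151 turned positive without KLF11 siRNA replicate 1, and that of CD81 without control siRNA replicate 1 and with median-of-ratios scaling. CD82, known as a suppressor of metastasis, was low, at 2.96 and 3.13 FPKM in the controls and 2.08 and 1.52 FPKM after KLF11 siRNA. Its libraries did not overlap, yet it missed the threshold (log2 change -0.54, limma adjusted p = 0.0768).

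**Figure D2:**
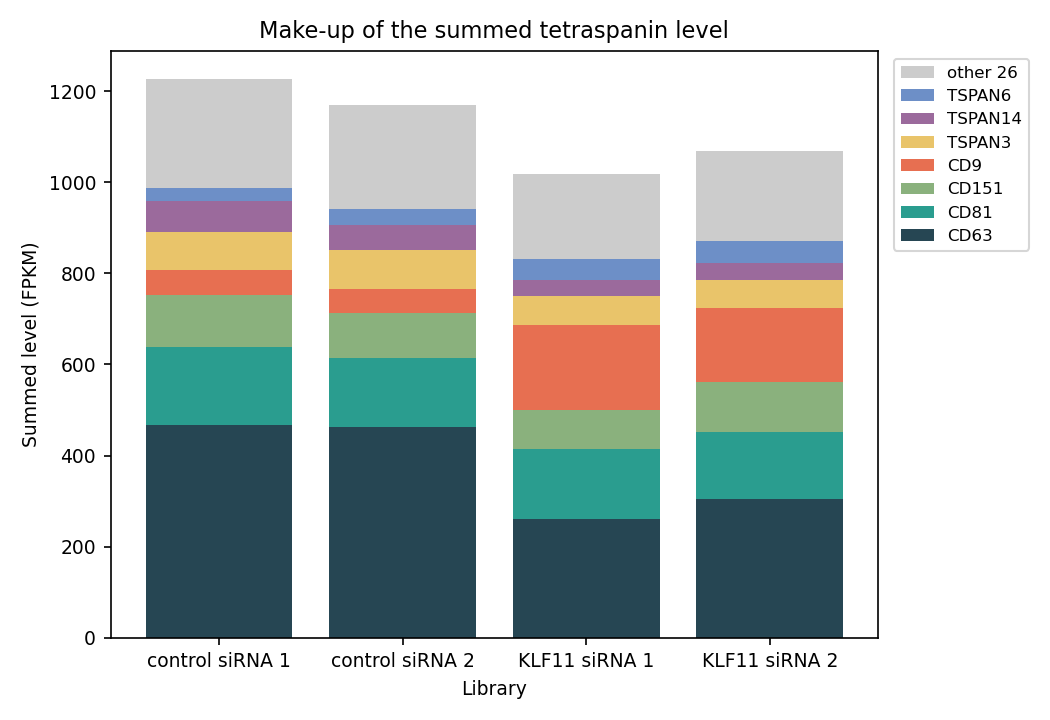
Summed FPKM of the 33 tetraspanin genes in each library, split by gene (vertical axis in FPKM, bars from 0). CD63 takes 38.0% and 39.6% of the bar in the control libraries and 25.6% and 28.5% in the KLF11 siRNA libraries, and CD9 goes from 4.51% and 4.46% to 18.3% and 15.2%.

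CD9 and CD63 moved in opposite directions, and CD9 went from the sixth to the second place among the members. All tetraspanins together summed to 1227 and 1169 FPKM in the controls and to 1018 and 1070 FPKM after KLF11 siRNA. The ratio of CD9 to CD63 was 0.119 and 0.113 in control and 0.716 and 0.532 in KLF11 siRNA libraries. CD9 was at 0.322 and 0.348 of the CD81 level in control and at 1.21 and 1.10 of it in KLF11 siRNA libraries. In both control libraries the order of levels ran CD63, CD81, CD151, TSPAN3, TSPAN14 and CD9, and in both KLF11 siRNA libraries CD63, CD9, CD81, CD151, TSPAN3 and TSPAN6. CD9, CD63, CD81 and CD151 taken as a set held between 65.5% and 67.7% of the summed level in all 4 libraries.

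**Figure D3:**
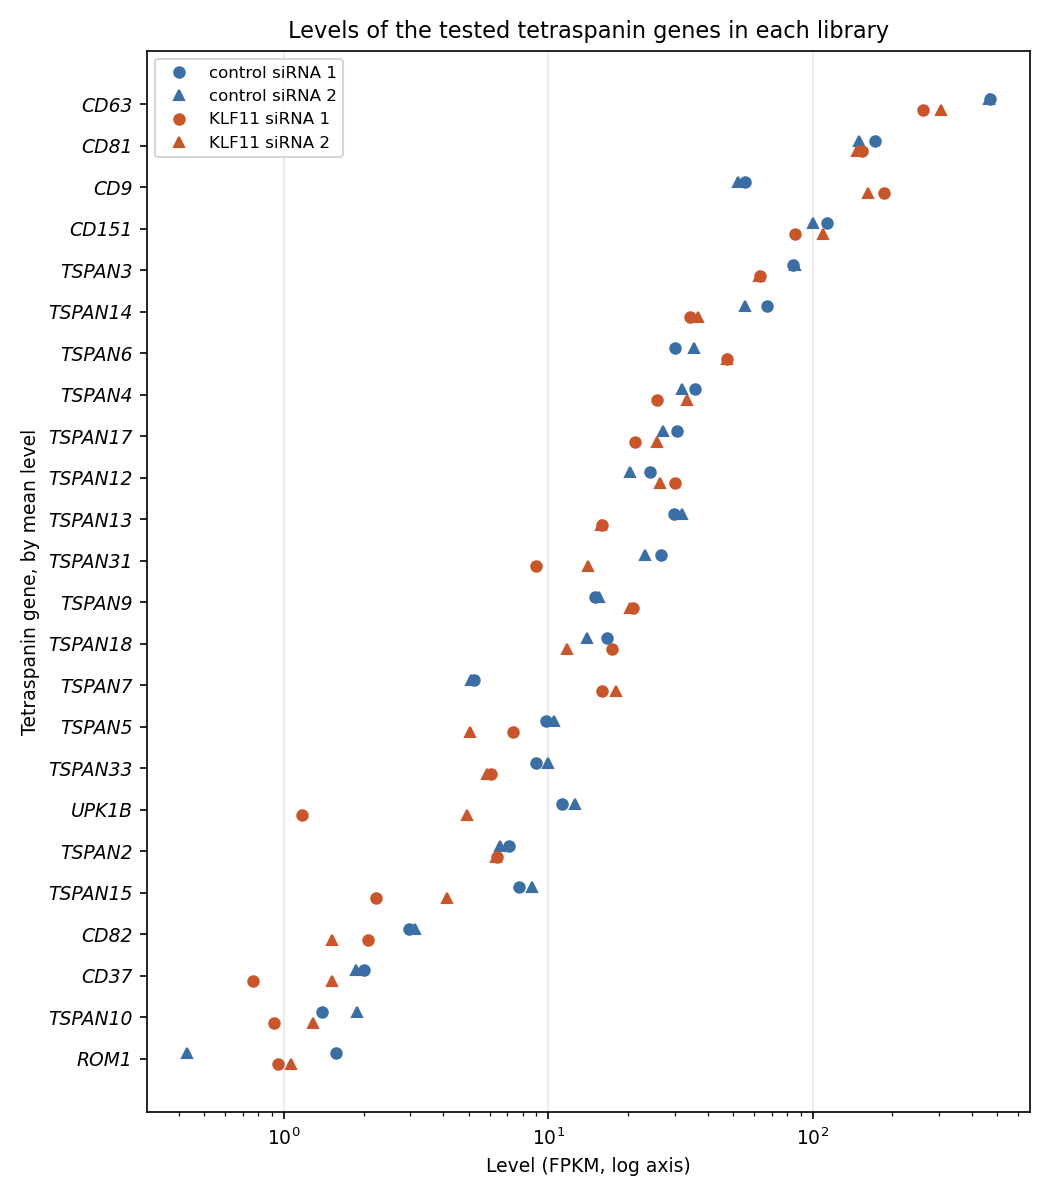
Level of each of the 24 tested tetraspanin genes in the 4 libraries (horizontal log axis, FPKM; circles and triangles are replicates 1 and 2, blue for control siRNA and orange for KLF11 siRNA), ordered by mean level. The symbols of the groups are separate for CD9, CD63 and TSPAN7 and interleave for CD151, TSPAN4, TSPAN18 and ROM1.

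The TspanC8 genes encode the tetraspanins with 8 cysteines in the large loop, which bind the membrane protease ADAM10, bring it out of the endoplasmic reticulum and steer it to different substrates. All 6 of them reached the filter, 4 fell (66.7%, against 21.7% of all tested genes), 0 rose, and in each of the 6 both KLF11 siRNA libraries lay below both controls. That order was seen in 44.5% of all tested genes. Their median log2 change was -0.61, against -0.11 over all tested genes. Their summed level was 125 and 114 FPKM in the controls and 72.3 and 79.0 FPKM after KLF11 siRNA.

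TSPAN14 (ENSG00000108219), the most abundant of them, measured 66.9 and 55.6 FPKM in the controls and 34.5 and 36.8 FPKM after KLF11 siRNA. It fell 1.72-fold (log2 change -0.76, SE 0.118, limma adjusted p = 0.0101) and held between 46.6% and 53.4% of the TspanC8 sum in every library. TSPAN15, which directs ADAM10 towards N-cadherin, had the largest fall of the group, from 7.76 and 8.67 FPKM to 2.23 and 4.12 FPKM (a 2.59-fold fall, log2 change -1.18, SE 0.248, limma adjusted p = 0.0211).

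TSPAN33 went from 8.94 and 9.93 FPKM to 6.09 and 5.84 FPKM (a 1.58-fold fall, log2 change -0.58, limma adjusted p = 0.0233). TSPAN5, which with TSPAN14 promotes Notch signalling through ADAM10, went from 9.76 and 10.5 FPKM to 7.35 and 5.07 FPKM (a 1.63-fold fall, log2 change -0.65, limma adjusted p = 0.0482). These were the 2 least firm calls of the group: TSPAN5 lost it with median-of-ratios scaling (limma adjusted p = 0.0825) and without KLF11 siRNA replicate 2 (limma adjusted p = 0.0675), and TSPAN33 with quantile normalization (limma adjusted p = 0.062). TSPAN17 measured 30.5 and 27.2 FPKM in the controls and 21.2 and 25.9 FPKM after KLF11 siRNA (limma adjusted p = 0.143), and TSPAN10 stayed below 2 FPKM (limma adjusted p = 0.293).

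**Figure D4:**
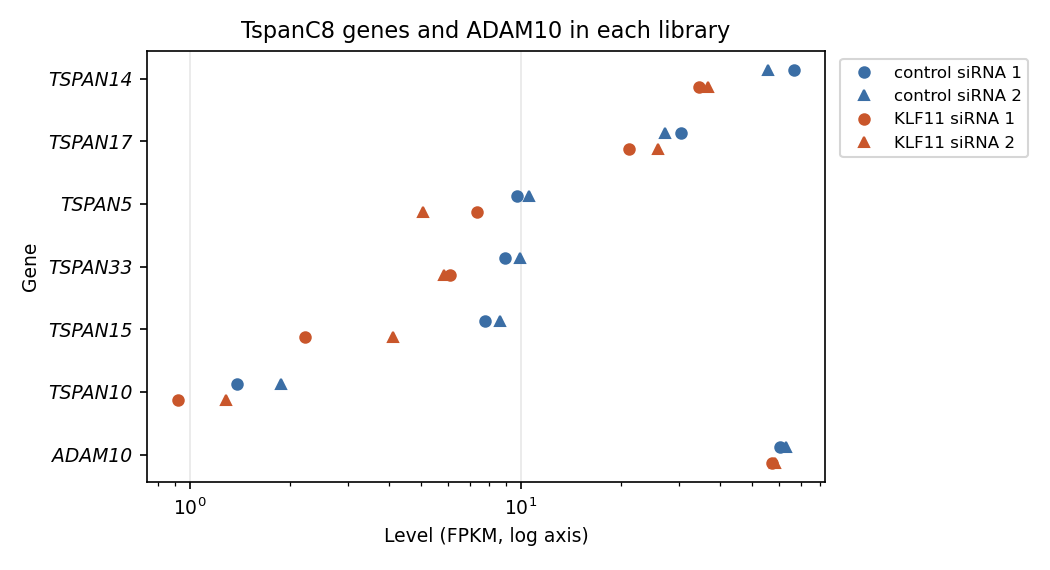
Level of the 6 TspanC8 genes and of ADAM10 in the 4 libraries (horizontal log axis, FPKM; circles and triangles are replicates 1 and 2, blue for control siRNA and orange for KLF11 siRNA). The orange symbols lie to the left of the blue ones in each row, by a wide gap for TSPAN14 and TSPAN15 and by a narrow one for ADAM10.

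ADAM10 itself measured 60.8 and 63.1 FPKM in the controls and 57.3 and 58.5 FPKM after KLF11 siRNA and did not pass (log2 change -0.10, SE 0.0804, limma adjusted p = 0.39). Of 9 listed proteins that ADAM10 is known to cut, 7 were tested, 4 of which rose (57.1%, against 13.5% of all tested genes) and 2 fell (28.6%, against 21.7%). PRNP, which encodes the prion protein, climbed from 7.89 and 8.06 FPKM to 41.8 and 34.2 FPKM (a 4.77-fold rise, limma adjusted p = 0.00235). Smaller rises were those of L1CAM, 1.51-fold (limma adjusted p = 0.0182), NOTCH1, 1.49-fold (limma adjusted p = 0.0207), and APP, 1.29-fold (limma adjusted p = 0.0262). NOTCH2 was lower, at 19.1 and 18.2 FPKM in the controls and 15.4 and 14.7 FPKM after KLF11 siRNA, and did not pass (limma adjusted p = 0.0737). The falls were CDH2, which encodes N-cadherin, from 267 and 275 FPKM to 180 and 201 FPKM (limma adjusted p = 0.0148), and CDH1, which encodes E-cadherin, from 58.5 and 52.3 FPKM to 20.9 and 34.5 FPKM (limma adjusted p = 0.0269).

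Among the other numbered tetraspanins 3 of 10 tested members rose and 3 fell (30.0% each, against 13.5% and 21.7% of all tested genes). TSPAN7 (ENSG00000156298), an X-linked tetraspanin known from neurons, went from 5.22 and 5.11 FPKM to 15.9 and 18.0 FPKM. Its 3.29-fold rise was as large as that of CD9 on the fold scale (log2 change 1.54, SE 0.123, limma adjusted p = 0.00324), from a lower starting level than that of CD9. TSPAN6, which lies on the X chromosome as well, measured 30.0 and 35.7 FPKM in the controls and 47.2 and 47.6 FPKM after KLF11 siRNA (a 1.44-fold rise, log2 change 0.52, limma adjusted p = 0.0216). TSPAN9, a platelet tetraspanin, went from 15.0 and 15.6 FPKM to 20.9 and 20.4 FPKM (a 1.35-fold rise, log2 change 0.41, limma adjusted p = 0.028).

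Without KLF11 siRNA replicate 1 the calls of TSPAN6 and TSPAN9 were lost (limma adjusted p = 0.06 and 0.066), which leaves 2 members called higher. TSPAN9 is the neighbour of TEAD4 in the RefSeq table, and TEAD4, one of the TEAD factors, rose from 17.1 and 16.7 FPKM to 34.9 and 31.3 FPKM (limma adjusted p = 0.00504).

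TSPAN31, TSPAN13 and TSPAN3 fell. TSPAN31, which is known from its co-amplification with CDK4 in sarcomas, measured 26.7 and 23.1 FPKM in the controls and 8.94 and 14.2 FPKM after KLF11 siRNA (a 2.16-fold fall, log2 change -1.07, SE 0.22, limma adjusted p = 0.0197). The RefSeq table has the genes TSPAN31 and CDK4 overlapping, and reads of overlapping genes cannot be told apart where the strand setting of the counting is not given. CDK4 did not fall beside TSPAN31 and did not pass, at 117 and 108 FPKM in the controls and 136 and 133 FPKM after KLF11 siRNA (limma adjusted p = 0.0608).

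TSPAN13 had close replicates, with 29.9 and 31.9 FPKM in the controls and 16.0 and 15.8 FPKM after KLF11 siRNA (a 1.95-fold fall, log2 change -0.92, SE 0.0947, limma adjusted p = 0.00473). TSPAN3, the fifth most abundant member, fell by a smaller amount, from 83.9 and 85.6 FPKM to 63.4 and 62.7 FPKM (a 1.34-fold fall, log2 change -0.42, SE 0.0777, limma adjusted p = 0.0151).

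The other 4 numbered members that were tested did not pass. TSPAN12, a coreceptor of the Norrin receptor complex, measured 24.3 and 20.4 FPKM in the controls and 30.2 and 26.4 FPKM after KLF11 siRNA (log2 change 0.33, SE 0.129, limma adjusted p = 0.103). It passed with median-of-ratios scaling and with quantile normalization (limma adjusted p = 0.0443 in each). TSPAN4, at 35.9 and 32.0 FPKM in the controls and 25.7 and 33.5 FPKM after KLF11 siRNA, overlapped between groups, as did TSPAN18, at 16.6 and 14.0 against 17.5 and 11.7 FPKM. The RefSeq table has the gene TSPAN18 overlapping TP53I11, a more abundant gene. TP53I11 fell from 89.6 and 86.3 FPKM to 21.8 and 39.5 FPKM (limma adjusted p = 0.0131). TSPAN2, known from oligodendrocytes, lay between 6.32 and 7.09 FPKM in all 4 libraries (limma adjusted p = 0.621).

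The other expressed genes of that complex fell. FZD4, the receptor of the complex, fell from 19.5 and 18.9 FPKM to 6.85 and 10.4 FPKM (a 2.23-fold fall, limma adjusted p = 0.0139). Its coreceptors fell less, LRP5 from 18.1 and 16.5 FPKM to 11.3 and 13.0 FPKM (limma adjusted p = 0.0332) and LRP6 from 18.1 and 18.0 FPKM to 14.0 and 13.9 FPKM (limma adjusted p = 0.0426). Apart from TSPAN12, 3 of 3 tested genes of the complex were called lower, a call made for 21.7% of all tested genes. TSPAN12 did not pass, and both its KLF11 siRNA libraries lay above both controls. NDP, which encodes the ligand Norrin, was at or below 0.09 FPKM.

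Of the uroplakin and photoreceptor tetraspanins, UPK1B had the highest level. UPK1B (ENSG00000114638), a uroplakin of the bladder lining, measured 11.2 and 12.7 FPKM in the controls and 1.17 and 4.93 FPKM after KLF11 siRNA. Both KLF11 siRNA libraries were below both controls, but they differed widely from each other. The mean fell 3.91-fold (log2 change -1.85, SE 0.468, limma adjusted p = 0.0338). Leaving out KLF11 siRNA replicate 1 gave a log2 change of -1.12 and leaving out replicate 2 gave -2.57, and the call was lost in a fit without a variance trend (limma adjusted p = 0.0518). The other uroplakins UPK2, UPK3A and UPK3B stayed at or below 0.83 FPKM, and UPK1A at or below 0.29 FPKM. Epithelial markers, a list of 7 led by KRT8, summed to 2564 and 2369 FPKM in the controls and to 1186 and 1429 FPKM after KLF11 siRNA. Of these markers 6 fell (85.7%, against 21.7% of all tested genes). Their part in the fall of UPK1B was not tested.

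PRPH2 and ROM1, the partner tetraspanins of photoreceptor discs, were low. ROM1 was at 1.57 and 0.43 FPKM in the controls and at 0.95 and 1.06 FPKM after KLF11 siRNA, and its controls lay on either side (limma adjusted p = 0.893). PRPH2 was under the filter, at 0.61 and 0.70 FPKM in the controls and 0.06 and 0.05 FPKM after KLF11 siRNA. The retinal markers SAG and CRX stayed at or below 0.62 FPKM, whereas PDE6B fell from 14.3 and 12.7 FPKM to 0.81 and 2.51 FPKM (limma adjusted p = 0.00678).

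The leukocyte tetraspanins CD37, CD53 and TSPAN32 were near the lower limit of the table. CD37 measured 2.01 and 1.87 FPKM in the controls and 0.76 and 1.52 FPKM after KLF11 siRNA and did not pass (log2 change -0.48, limma adjusted p = 0.178). The RefSeq table has CD37 overlapping TEAD2, a far more abundant gene that fell from 131 and 124 FPKM to 84.8 and 87.7 FPKM (limma adjusted p = 0.00855). CD53 stayed at or below 0.28 FPKM and TSPAN32 at or below 0.11 FPKM. The 8 leukocyte markers summed to 0.99 and 0.94 FPKM in the controls and to 2.56 and 3.16 FPKM after KLF11 siRNA, with CD3E listed at 0 and CORO1A the highest.

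Altogether 9 members did not reach the filter, namely TSPAN19, PRPH2, TSPAN11, TSPAN8, UPK1A, CD53, TSPAN1, TSPAN32 and TSPAN16. None of them reached 1 FPKM in any library, the highest value being 0.78 FPKM for TSPAN11 in KLF11 siRNA replicate 1, against 0.09 FPKM in each control. TSPAN8, known from digestive tract tumours, was at 0.29 and 0.38 FPKM in control, listed at 0 in KLF11 siRNA replicate 1 and at 0.08 FPKM in replicate 2. TSPAN16 was listed at 0 in 3 libraries.

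Genes of partner proteins that tetraspanins bind in or beneath the membrane moved in both directions. MSN, RDX, EZR and PRKCA on this list encode proteins that are not held in the membrane itself. Of 20 tested partner genes 4 rose (20%, against 13.5% of all tested genes), 7 fell (35.0%, against 21.7%) and 9 did not pass. Their median log2 change was -0.23, against -0.11 over all tested genes. ITGB1, which encodes the integrin beta1 chain, went from 170 and 199 FPKM to 373 and 365 FPKM (a 2.00-fold rise, limma adjusted p = 0.00476). ITGA3, which encodes the alpha3 chain bound by CD151, went from 6.84 and 6.80 FPKM to 13.5 and 16.3 FPKM (a 2.18-fold rise, limma adjusted p = 0.00711). The 2 other partner genes that rose were PTGFRN, an immunoglobulin-like partner of CD9 and CD81, 1.72-fold (limma adjusted p = 0.0288), and the lipid kinase gene PI4K2A, 1.62-fold (limma adjusted p = 0.0164).

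ITGA6, another laminin-binding alpha chain, fell from 17.1 and 17.4 FPKM to 10.1 and 10.3 FPKM (a 1.68-fold fall, limma adjusted p = 0.00888). The integrin alpha gene ITGA7 lay between 14.9 and 19.5 FPKM in all 4 libraries and did not pass (limma adjusted p = 0.795). EPCAM, an epithelial adhesion protein found in tetraspanin complexes, fell from 346 and 352 FPKM to 60.7 and 95.6 FPKM (a 4.46-fold fall, limma adjusted p = 0.00436). The remaining falls were CLDN7, ITGB4, RDX, ADAM17 and MSN. CLDN7 measured 115 and 106 FPKM in the controls and 5.78 and 19.3 FPKM after KLF11 siRNA, so its KLF11 siRNA libraries differed widely, and the other 4 fell between 4.13-fold for ITGB4 and 1.35-fold for MSN. EPCAM also belongs to the epithelial markers above, and the part of these in its fall was not tested. IGSF8, the other immunoglobulin-like partner of CD9 and CD81, lay between 16.5 and 19.0 FPKM in all 4 libraries.

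Genes of extracellular vesicle formation moved in both directions as well, with 6 of 25 tested genes higher (24.0%, against 13.5% of all tested genes) and 9 lower (36.0%, against 21.7%). Their median log2 change was -0.17, against -0.11 over all tested genes. FLOT1, a flotillin of lipid rafts, fell from 73.7 and 67.0 FPKM to 29.2 and 26.4 FPKM (a 2.53-fold fall, limma adjusted p = 0.0031). RALB, a small GTPase, fell from 43.5 and 43.9 FPKM to 12.3 and 17.3 FPKM (a 2.95-fold fall, limma adjusted p = 0.00504). Syndecans, heparan sulfate proteins that bind syntenin, went both ways. SDC2 rose 2.49-fold to 70.3 and 56.9 FPKM (limma adjusted p = 0.00522), and SDC3 fell 2.20-fold to 13.1 and 13.4 FPKM (limma adjusted p = 0.00592). SDCBP, which encodes syntenin, a binding partner of CD63, was lower as CD63 was, at 149 and 157 FPKM in the controls and 101 and 114 FPKM after KLF11 siRNA (a 1.42-fold fall, limma adjusted p = 0.0157).

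Tetraspanins are anchored by palmitate on their cysteines. Of 7 tested enzymes that add or remove palmitate 0 rose (0%, against 13.5% of all tested genes) and 1 fell (14.3%, against 21.7%). The fall was that of ZDHHC4, from 24.9 and 21.9 FPKM to 15.4 and 13.4 FPKM (a 1.63-fold fall, limma adjusted p = 0.0151). ZDHHC2, which palmitoylates CD9 and CD151, missed the threshold, with 41.8 and 35.6 FPKM in the controls and 20.2 and 30.2 FPKM after KLF11 siRNA (limma adjusted p = 0.0674), nor did ZDHHC9 (limma adjusted p = 0.082) or LYPLA2 (limma adjusted p = 0.171). The L6 family, a separate set of membrane proteins with a similar topology, had 0 of 6 genes at the filter, with a highest value of 1.85 FPKM for TM4SF18 in KLF11 siRNA replicate 1.

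**Figure D5:**
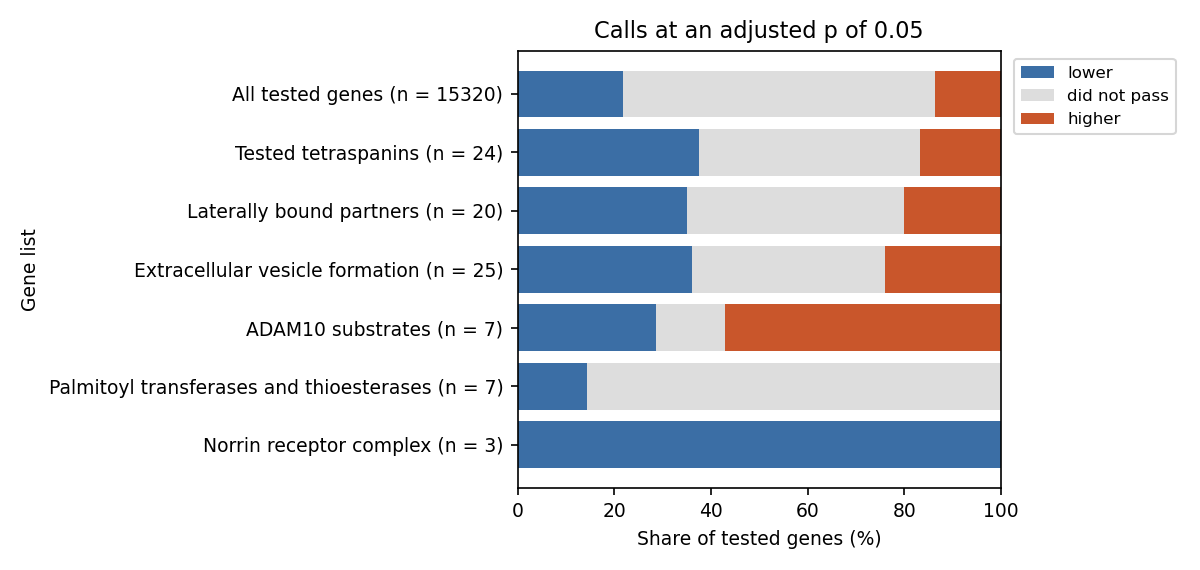
Share of tested genes called lower (blue), not passing (grey) and higher (orange) at an adjusted p of 0.05, in percent, for all tested genes, the tested tetraspanins and 5 lists of genes that act with them (number tested in parentheses). All tested genes show 21.7% lower and 13.5% higher, and the tetraspanins 37.5% lower and 16.7% higher.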

How the data were processed

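The values the authors deposited are FPKM, rounded to 2 decimals, in a table of 57905 Ensembl identifiers by 4 libraries. Trim Galore 0.5.0, RSEM 1.3.1 and the build hg19 (GRCh37) are named per the submitters' processing notes. Not given in the sources used here are the aligner, the annotation release and the strand setting. RSEM divides shared reads among transcripts, so overlapping or similar genes are uncertain.

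Columns were matched to samples by name, with 0 left over. Genes with a mean of at least 1 FPKM entered limma 3.58.1 (R 4.3.3, mean-variance trend, 2 groups, no block) on log2(FPKM + 1), with Benjamini-Hochberg adjustment over all 15320 tested genes and a threshold of 0.05. With 2 libraries a group, the smallest two-sided p of an exact permutation test is 0.333, so none was run. Levels are given per library in replicate order, and folds are ratios of mean FPKM. The fit was tested on simulated data. Replicates differed (Pearson r across genes, which are no independent replicates, 0.982 in control and 0.976 in KLF11 siRNA libraries).

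Members, lists and rules were chosen with earlier results of these data known. Named were KLF11, the tested members and, of each partner list, up to 4 genes with the smallest p and those behind counts of 5 or fewer. Any further gene that is no tetraspanin was picked after its values were seen. All 33 identifiers matched an Ensembl name table with the same symbol. Promoters and gene neighbours come from RefSeq tables of GRCh38.p14, matched by symbol, and transcript starts of GENCODE release 29 lay in the sense direction in 23 of 25 member windows and in the antisense direction in 0. Figures were drawn with matplotlib 3.10.9.

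Alternatives were pseudocounts of 0.1 and 5, no filter and one at a mean of 5 FPKM, TPM, median-of-ratios and quantile normalization, a fit without a variance trend, the replicate number as a block and each library left out in turn.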

Additional observations from a re-analysis of the deposited data

How the results depend on the processing

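With no filter, where 34232 genes were tested, 2 tetraspanins were called higher and 5 lower, beside 887 and 1251 of all genes. With the filter at 1 FPKM these counts were 4, 9, 2071 and 3329. Of the tetraspanins called with no filter, 6 were also called with the filter at 1 FPKM. More genes were adjusted for with no filter. With 1 library left out, the counts ran from 0 to 4 tetraspanins higher and 0 to 9 lower, and from 0 to 2291 of all genes higher and 0 to 3813 lower. The counts of 0 came without either control library, where 4461 or 4793 genes had an unadjusted limma p under 0.05 and the spread rests on the KLF11 siRNA pair. The log2 change of KLF11 ran from -1.04 to -0.79 with 1 library left out (limma adjusted p = 0.116 and 0.113 without control replicates 1 and 2). Median-of-ratios scaling called 2728 of all genes higher and 2664 lower, quantile normalization 2657 and 2664, and scaling to TPM 1819 and 3699.

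The fit with the replicate number as a block called 3 tetraspanins higher and 7 lower, and TSPAN9, TSPAN33 and TSPAN5 lost their call. In this block fit the log2 change of KLF11 was -0.92, and 1707 of all genes were called higher and 2644 lower. The labels do not say that a number marks a shared culture or day, and deviations of libraries with the same number had a correlation of -0.07 across genes.

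Signs turned only for members that had not passed. With median-of-ratios scaling the log2 change was 0.0272 for CD81, 0.0275 for TSPAN18 and 0.0162 for TSPAN2, and with quantile normalization 0.0338 for TSPAN18 and 0.0715 for TSPAN2. With 1 library left out, CD81 ran from -0.19 to 0.00665, CD151 from -0.31 to 0.0403, TSPAN18 from -0.35 to 0.18 and ROM1 from -0.36 to 0.49. The cause of these turns was not tested. Depth is unknown, so no detection limit can be given for members listed near 0.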
